A study of Mus musculus with 35 samples.

Results

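In the aortas of apolipoprotein E-deficient mice that overexpress human apolipoprotein A-I, 4 genes of mouse chromosome 9 (Glb1, Srprb, Nxpe4 and 2310030G06Rik) were read at lower levels, and Morf4l1b of chromosome 19 at higher levels, than in apolipoprotein E-deficient mice without the transgene. These 5 genes, out of 14174 in the deposited table, were chosen by these same signals, as genes that passed an adjusted p of 0.05 the same way between the genotypes in 3 or 4 of the 4 combinations of diet and duration. Glb1, Nxpe4, 2310030G06Rik and Morf4l1b did so in 4 and Srprb in 3. All 5 were among the 14157 genes tested, and 8 genes met the rule in all. The genotype differences are therefore given as descriptions, with no test. The table holds expression values and no DNA variants, so neither a variant nor linkage to the transgene was measured here.

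Total RNA of 35 mouse aortas was sequenced in 12 groups. EKO/hA-I mice lacked apolipoprotein E and overexpressed human apolipoprotein A-I (11 libraries), EKO mice lacked apolipoprotein E (12 libraries), and WT mice were wild type (12 libraries). All were labelled C57BL/6 and received a Western diet (WD) or chow from 8 weeks of age for 6 or 22 weeks, so that they were 14 or 30 weeks old. Each group had 3 libraries, except EKO/hA-I on chow at 6 weeks with 2. The promoter, copy number and insertion site of the transgene and the crosses behind the EKO/hA-I line are not given in the sources used here. Every EKO/hA-I library carries the transgene, so its effect cannot be told apart from that of any other genetic difference between the lines. The p-values measure the spread between these libraries.

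The libraries behind the values differed in depth, from 6850000 to 25330000 reads (median 15040000) as inferred from the step between low values. Apoe, the deleted gene, was read at 6.19 to 21.0 in EKO/hA-I libraries, 5.37 to 29.7 in EKO libraries and 416 to 1276 in WT libraries. In WT on WD at 22 weeks, replicate 3 was tagged EKO and titled WT, and was kept as WT. The smooth muscle marker Myh11 was read at 1086 or more in all libraries, and the brown fat marker Ucp1 was read at 603 or more although fat around the vessel had been removed. Transcripts of Y-linked genes were lacking in 3 EKO/hA-I, 5 EKO and 4 WT libraries. In such bulk samples, fewer cells of a type and less RNA per cell cannot be told apart.

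As background, Glb1 encodes the lysosomal acid beta-galactosidase, which removes galactose from GM1 ganglioside and keratan sulfate and works in a complex with the protective protein cathepsin A. Srprb encodes the membrane-anchored beta subunit of the signal recognition particle receptor, which brings ribosomes making secreted and membrane proteins to the endoplasmic reticulum. Nxpe4 belongs to a family named for neurexophilin and PC-esterase domains. Morf4l1b is named as a relative of Morf4l1, which encodes the chromodomain protein MRG15 of histone acetyltransferase and deacetylase complexes. No role is given for 2310030G06Rik.

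The windows below, from RefSeq on GRCm38.p6, run from 250 bases before to 50 after each start and are the C57BL/6J reference, not a sequence read from these mice. They are shown because Glb1 and Nxpe4 hold the letters CACGTG (capitals), an E-box that factors of lysosomal and circadian gene control can bind, while 2310030G06Rik, which differed between the genotypes in the same direction, does not.
Glb1, chr9:114400828-114401127, plus strand: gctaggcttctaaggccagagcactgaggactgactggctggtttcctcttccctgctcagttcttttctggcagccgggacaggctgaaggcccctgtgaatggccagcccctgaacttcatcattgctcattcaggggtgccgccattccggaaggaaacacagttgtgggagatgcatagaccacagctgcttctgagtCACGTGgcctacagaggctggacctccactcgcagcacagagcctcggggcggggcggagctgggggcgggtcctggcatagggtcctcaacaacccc
Nxpe4, chr9:48361791-48362090, plus strand: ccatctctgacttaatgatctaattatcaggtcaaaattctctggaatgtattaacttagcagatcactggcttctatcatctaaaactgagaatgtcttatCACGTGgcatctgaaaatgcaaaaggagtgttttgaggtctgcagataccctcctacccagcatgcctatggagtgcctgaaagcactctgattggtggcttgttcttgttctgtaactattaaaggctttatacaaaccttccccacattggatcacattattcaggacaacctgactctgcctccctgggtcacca
2310030G06Rik, chr9:50746478-50746777, minus strand: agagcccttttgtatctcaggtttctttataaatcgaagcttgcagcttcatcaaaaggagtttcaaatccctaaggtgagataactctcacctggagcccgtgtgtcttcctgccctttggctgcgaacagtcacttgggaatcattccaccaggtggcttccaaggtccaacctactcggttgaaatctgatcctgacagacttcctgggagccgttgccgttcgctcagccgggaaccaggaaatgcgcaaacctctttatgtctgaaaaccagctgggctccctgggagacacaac

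The motif reads the same on both strands. It begins 48 bases before the start of Glb1 and 148 before that of Nxpe4, and these letters are not in the windows of Srprb, 2310030G06Rik and Morf4l1b. It is in 7.15% of 32851 such windows and in 9.38% of the 13731 that belong to tested genes. GC content was 60.7% for Glb1, 42.3% for Nxpe4, 50.7% for 2310030G06Rik and 38.7% for Morf4l1b.

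On each diet and at both durations, Glb1 stood lower with the transgene than without it. Its normalised signal (the deposited unit, in which every library adds to about the same total) had a lowest, median and highest value of 13.5, 16.6 and 23.7 in the 11 EKO/hA-I libraries, of 30.3, 36.4 and 91.5 in the 12 EKO libraries and of 14.2, 23.7 and 34.5 in the 12 WT libraries. The highest EKO/hA-I library thus lay below the lowest EKO library, while EKO/hA-I and WT overlapped. On chow at 6 weeks the signal was 17.3 and 16.6 in EKO/hA-I libraries, against 35.1, 39.9 and 36.3 in EKO libraries, a log2 difference of -1.08 ± 0.21 (SE). Log2 differences are those of log2(signal + 1), the first group minus the second, with the SE of the fit over all 35 libraries. On WD at 6 weeks the signal was 13.5, 23.7 and 17.3 in EKO/hA-I libraries, against 43.8, 30.6 and 36.6 in EKO libraries (-1.01 ± 0.18). On chow at 22 weeks it was 18.5, 16.5 and 18.6 in EKO/hA-I libraries, against 33.7, 30.3 and 31.0 in EKO libraries (-0.79 ± 0.18). These 3 differences were close to each other in size. On WD at 22 weeks it was 14.6, 14.1 and 16.3 in EKO/hA-I libraries, against 66.4, 67.0 and 91.5 in EKO libraries (-2.23 ± 0.18), the largest of the 4 differences.

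Against WT, where Glb1 averaged 24.7 ± 1.04 on chow and 19.6 ± 4.84 on WD at 6 weeks and 21.3 ± 4.18 on chow and 30.0 ± 5.62 on WD at 22 weeks (SD, n = 3 each), the EKO libraries stood higher and the EKO/hA-I libraries close to or below WT. The EKO minus WT log2 differences were 0.57, 0.89, 0.57 and 1.29 in the order chow 6 weeks, WD 6 weeks, chow 22 weeks and WD 22 weeks, with no overlap of the libraries in any of the 4. Higher in EKO without overlap were 12.6%, 14.1%, 12.3% and 23.7% of all tested genes. The EKO/hA-I minus WT differences were -0.52, -0.11, -0.23 and -0.94 in the same order. These comparisons share EKO or EKO/hA-I libraries with those that chose the gene.

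**Figure D1:**
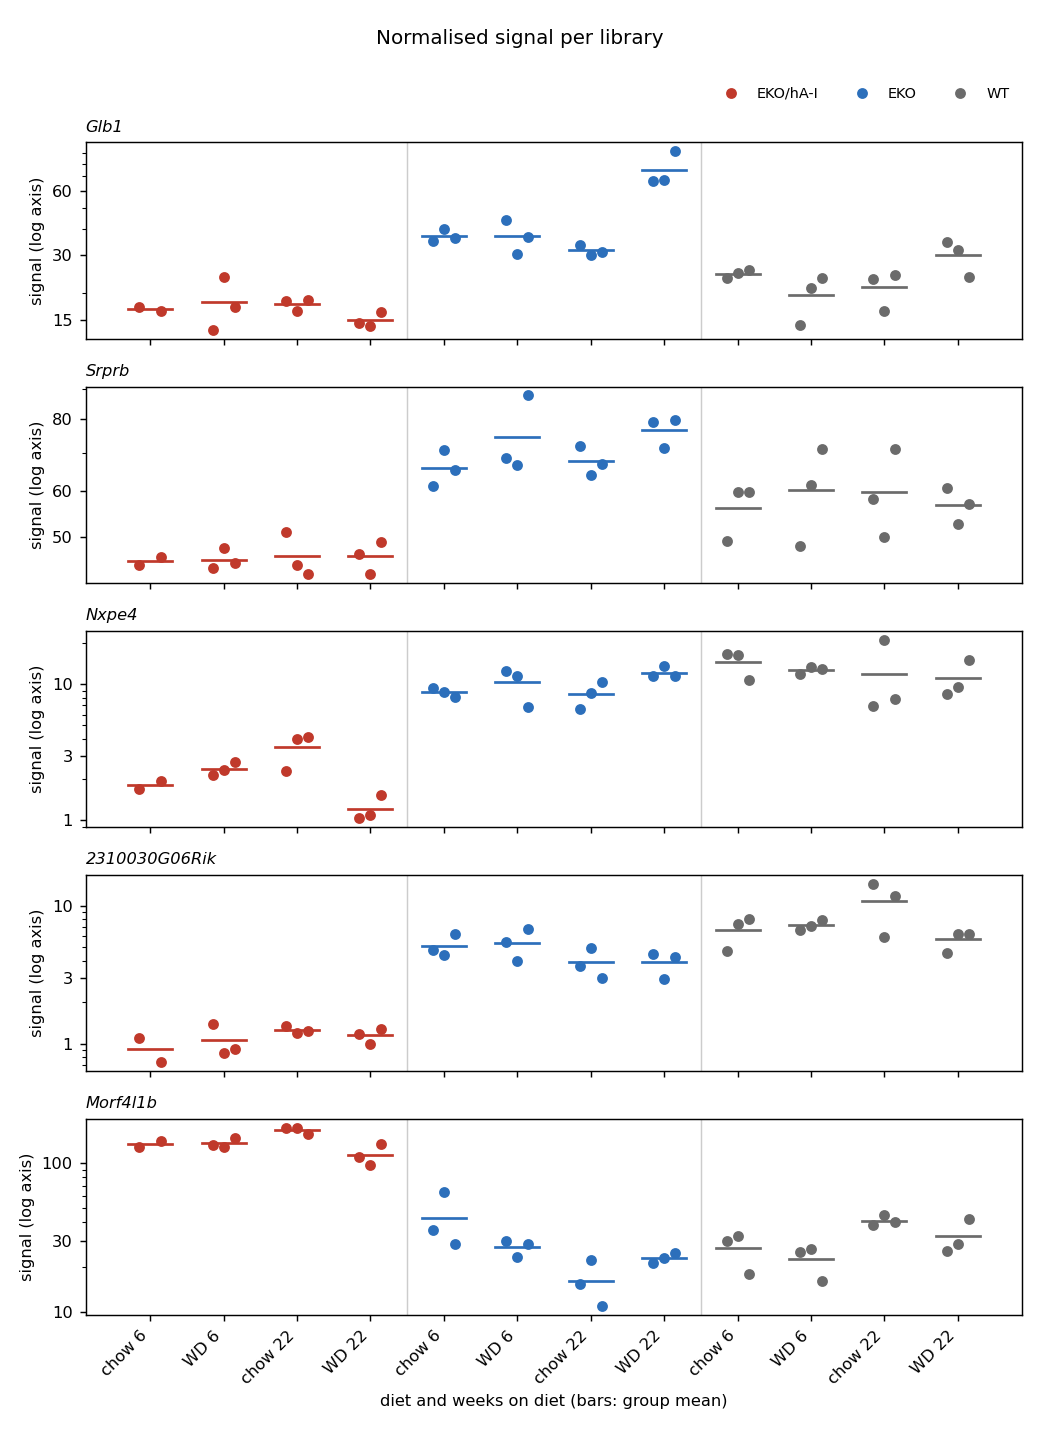
Normalised signal (log axis) of the 5 genes in each of the 35 libraries, by genotype (EKO/hA-I, EKO, WT) and by diet and weeks on diet, with a bar at each group mean. In each panel the 11 EKO/hA-I points lie on one side of the 12 EKO points, and for Nxpe4, 2310030G06Rik and Morf4l1b also on one side of the 12 WT points.

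Macrophage markers moved with Glb1 in some of these pairs and not in others. The summed signal of 10 macrophage markers, all 10 measured and none at 0 throughout a group, on chow at 6 weeks was 516 to 782 with the transgene (EKO/hA-I) and 479 to 753 without it (EKO). On WD at 6 weeks it was 754 to 1447 with and 936 to 1512 without it. In these 2 pairs 0 of the 10 markers passed the threshold in either direction, where 0.0777% (chow) and 0.0706% (WD) of all tested genes did. On chow at 22 weeks the sum was 476 to 709 with and 1269 to 2129 without it, with 5 of 10 markers lower. On WD at 22 weeks it was 1045 to 2340 with and 6594 to 9461 without it, with 9 of 10 lower. Other tissue markers moved too: on chow at 22 weeks 4 of 6 brown fat markers were lower and 3 of 7 smooth muscle markers higher in EKO/hA-I, and on WD at 22 weeks 4 of 6 skeletal muscle and 2 of 6 brown fat markers were higher. Of 5 fibroblast markers, 2 were higher on chow and 1 lower on WD at 22 weeks. With the brown fat mean as a term, all 5 genes still met the rule, and Glb1 no longer passed on chow at 6 weeks nor Nxpe4 on chow at 22 weeks. The part of the smooth muscle, skeletal muscle and fibroblast markers was not tested. With the mean of the 10 macrophage markers as a term in the fit, the Glb1 difference was -0.61 on chow and -1.90 on WD at 22 weeks, and it did not pass the threshold on chow. Under this term Nxpe4 on chow and 2310030G06Rik on WD at 22 weeks did not pass either, so that Glb1, Nxpe4 and 2310030G06Rik each passed in 3 pairs in place of 4. At 22 weeks the marker mean did not overlap between EKO/hA-I and EKO on either diet. The term therefore cannot tell the part of macrophages from that of the genotype there.

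Srprb showed the smallest differences of the 5 genes and the tightest values. Its signal had a lowest, median and highest value of 43.3, 45.2 and 51.2 in EKO/hA-I libraries, of 61.3, 69.6 and 87.8 in EKO libraries and of 48.2, 59.0 and 71.1 in WT libraries. The coefficient of variation over the EKO/hA-I libraries was 5.39%. WT lay between the other genotypes and overlapped both. On chow at 6 weeks, the pair in which Srprb did not pass the threshold of the rule, the signal was 44.8 and 46.3 in EKO/hA-I libraries, against 61.3, 70.7 and 65.2 in EKO libraries (-0.52 ± 0.14). On WD at 6 weeks it was 44.3, 47.9 and 45.2 in EKO/hA-I libraries, against 68.4, 66.7 and 87.8 in EKO libraries (-0.68 ± 0.13). On chow at 22 weeks it was 51.2, 44.8 and 43.3 in EKO/hA-I libraries, against 71.7, 64.1 and 67.0 in EKO libraries (-0.54 ± 0.13). The 4 differences were alike in size, and on WD at 22 weeks the libraries read 46.9, 43.3 and 49.1 in EKO/hA-I, against 79.0, 71.2 and 79.7 in EKO (-0.71 ± 0.13). EKO/hA-I minus WT differences lay between -0.37 and -0.29, and EKO minus WT differences between 0.19 and 0.43, with EKO and WT libraries that overlapped on WD at 6 weeks and chow at 22 weeks. Srpr, the alpha subunit of the same receptor, was read at 159.2 to 200.7 in EKO/hA-I libraries and 165.4 to 215.4 in EKO libraries, so these ranges overlapped.

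Nxpe4 was low in EKO/hA-I aortas against both other genotypes. Its lowest, median and highest signal was 1.04, 2.15 and 4.12 in EKO/hA-I libraries, 6.60, 9.92 and 13.5 in EKO libraries and 6.90, 12.4 and 21.3 in WT libraries. The EKO/hA-I values overlapped neither the EKO nor the WT values, while EKO and WT overlapped. They stood for about 17.5 to 66.3 inferred reads a library, against 84.9 to 321 in EKO and 58.9 to 216 in WT, so counting error weighs most on the EKO/hA-I values. On chow at 6 weeks the signal was 1.69 and 1.94 in EKO/hA-I libraries, against 9.35, 8.76 and 8.05 in EKO libraries (-1.79 ± 0.32). On WD at 6 weeks it was 2.15, 2.33 and 2.70 in EKO/hA-I libraries, against 12.6, 11.6 and 6.84 in EKO libraries (-1.71 ± 0.28). On chow at 22 weeks it was 2.31, 3.97 and 4.12 in EKO/hA-I libraries, against 6.60, 8.59 and 10.5 in EKO libraries (-1.10 ± 0.28). The groups came closest to each other there. On WD at 22 weeks it was 1.04, 1.09 and 1.53 in EKO/hA-I libraries, against 11.5, 13.5 and 11.5 in EKO libraries (-2.58 ± 0.28). WT means ran from 11.1 ± 3.63 on WD at 22 weeks to 14.6 ± 3.42 on chow at 6 weeks (SD, n = 3 each), and the EKO/hA-I minus WT differences lay between -2.45 and -1.40.

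2310030G06Rik was the lowest of the 5 genes in signal, and its EKO/hA-I values also stood apart from both other genotypes. The lowest, median and highest value was 0.733, 1.18 and 1.38 in EKO/hA-I libraries, 2.94, 4.44 and 6.76 in EKO libraries and 4.58, 6.91 and 14.5 in WT libraries. The EKO/hA-I values stood for about 13 to 28 inferred reads a library. On chow at 6 weeks the signal averaged 0.911 ± 0.253 in EKO/hA-I (SD, n = 2) and 5.14 ± 0.954 in EKO (SD, n = 3), a log2 difference of -1.68 ± 0.26. On WD at 6 weeks it averaged 1.05 ± 0.286 in EKO/hA-I and 5.41 ± 1.40 in EKO (SD, n = 3 each; -1.63 ± 0.23). At 22 weeks the EKO means were lower in value and the gap smaller. On chow the means were 1.26 ± 0.0739 in EKO/hA-I and 3.88 ± 1.01 in EKO (SD, n = 3 each; -1.09 ± 0.23), and on WD 1.15 ± 0.141 in EKO/hA-I and 3.89 ± 0.826 in EKO (SD, n = 3 each; -1.17 ± 0.23). Of these low values the pseudocount sets the size of the log2 difference. With a pseudocount of 0.1 the 4 differences of 2310030G06Rik lay between -2.38 and -1.52 and those of Nxpe4 between -3.24 and -1.30. With a pseudocount of 5 they lay between -0.78 and -0.50 for 2310030G06Rik and between -1.47 and -0.68 for Nxpe4, and neither gene passed the threshold on chow at 6 weeks.

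WT aortas had the highest median of 2310030G06Rik. The group means were 6.72 ± 1.77 on chow and 7.25 ± 0.641 on WD at 6 weeks, and 10.8 ± 4.37 on chow and 5.72 ± 0.983 on WD at 22 weeks (SD, n = 3 each). EKO minus WT differences were negative in all 4 pairs, between -1.21 and -0.31, with libraries that did not overlap at 22 weeks and did at 6 weeks. At 22 weeks, 13% of tested genes were lower in EKO without overlap on chow and 16.9% on WD. EKO/hA-I minus WT differences lay between -2.30 and -1.64.

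**Figure D2:**
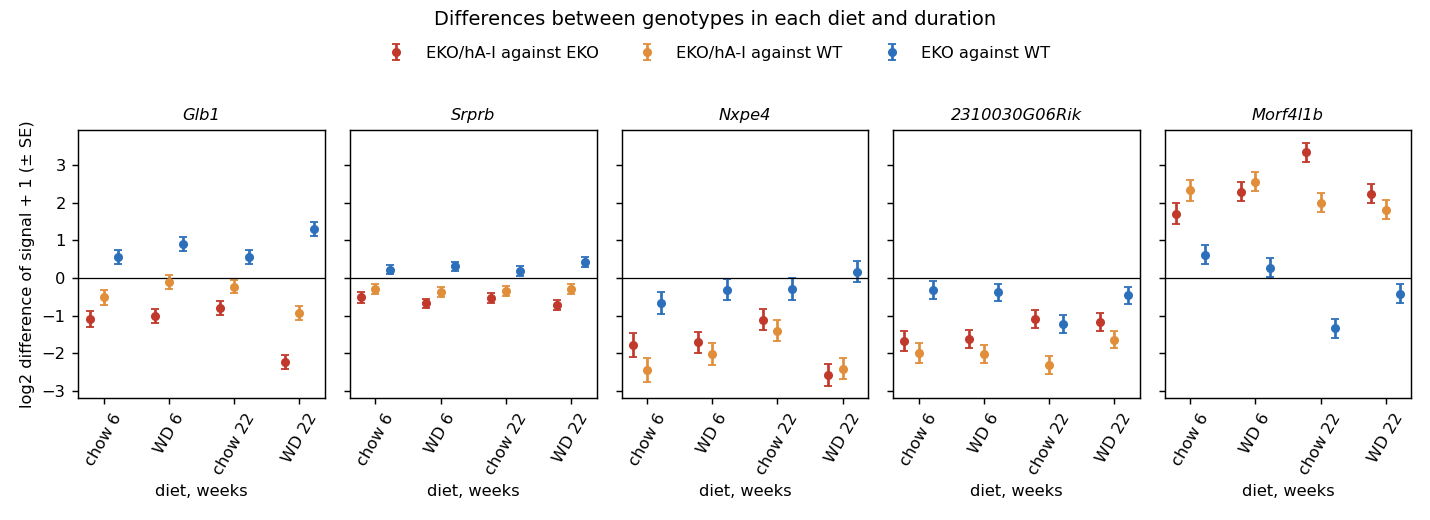
Log2 differences (± SE) of each gene for EKO/hA-I against EKO, EKO/hA-I against WT and EKO against WT in the 4 combinations of diet and weeks on diet. The EKO minus WT differences of Glb1 and Srprb are above 0 in all 4, with libraries that overlap for Srprb on WD at 6 weeks and chow at 22 weeks, Nxpe4 and 2310030G06Rik were far lower in EKO/hA-I than in WT, and Morf4l1b was higher in EKO/hA-I than in both.

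Morf4l1b was the gene that stood higher in EKO/hA-I aortas. Its lowest, median and highest signal was 97.0, 134.5 and 172.3 in EKO/hA-I libraries, 10.9, 24.1 and 64.0 in EKO libraries and 16.0, 29.4 and 44.6 in WT libraries. The lowest EKO/hA-I library lay above the highest of the 24 others. On chow at 6 weeks the signal was 127.1 and 141.2 in EKO/hA-I libraries, against 35.5, 64.0 and 28.7 in EKO libraries (1.71 ± 0.28). On WD at 6 weeks it was 131.3, 127.6 and 147.2 in EKO/hA-I libraries, against 29.7, 23.4 and 28.3 in EKO libraries (2.28 ± 0.25). On chow at 22 weeks it was 172.3, 170.9 and 157.0 in EKO/hA-I libraries, against 15.5, 22.2 and 10.9 in EKO libraries (3.34 ± 0.25). That was the largest difference, with the highest EKO/hA-I and the lowest EKO group mean of the gene. On WD at 22 weeks it was 109.5, 97.0 and 134.5 in EKO/hA-I libraries, against 21.4, 23.1 and 24.9 in EKO libraries (2.24 ± 0.25). The EKO/hA-I minus WT differences lay between 1.81 and 2.56.

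Morf4l1, the namesake of Morf4l1b, lies on chromosome 9 and was read lower in EKO/hA-I in 3 of the 4 pairs, though only WD at 22 weeks passed the threshold. Morf4l1 had a lowest, median and highest signal of 171.8, 224.0 and 298.4 in EKO/hA-I libraries, of 257.7, 342.0 and 393.5 in EKO libraries and of 257.0, 341.9 and 378.9 in WT libraries. Its EKO/hA-I minus EKO log2 differences were -0.68 on chow and -0.62 on WD at 6 weeks and -0.04 on chow and -0.88 on WD at 22 weeks. Over all diets and durations, the sum of both genes was 366 ± 60.8 in EKO/hA-I (SD, n = 11), 363 ± 54.4 in EKO and 361 ± 43.6 in WT (SD, n = 12 each). Within pairs it was not equal: on chow it was 370 to 373.2 in EKO/hA-I against 401 to 440.4 in EKO at 6 weeks, and 422.3 to 455.4 in EKO/hA-I against 273.2 to 320.5 in EKO at 22 weeks. The sum was thus lower at 6 weeks and higher at 22 weeks without overlap on chow, while on WD the ranges overlapped at both durations. The share of the sum assigned to Morf4l1b did not overlap, with 34.1 to 40.8% in EKO/hA-I libraries, against 3.52 to 14.5% in EKO libraries and 4.85 to 13.9% in WT libraries. How reads that match both genes were placed is not given in the sources used here, and the likeness of their sequences was not computed. The signal of Morf4l1b is therefore uncertain as a measure of that gene alone. Lcor, within whose annotated span the whole 1710 bases of Morf4l1b lie, was read at 0.767 to 2.31 in EKO/hA-I libraries and 0.377 to 1.54 in EKO libraries, which overlap.

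**Figure D3:**
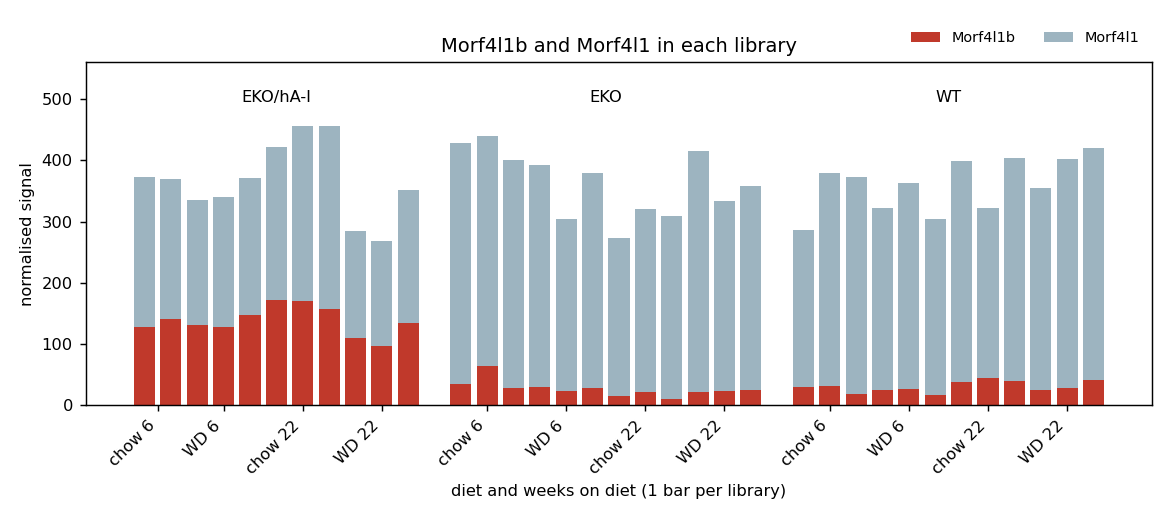
Stacked normalised signal of Morf4l1b (red) and Morf4l1 (blue-grey) in each library, EKO/hA-I left of EKO and EKO left of WT, 1 bar per library. The red part is 34.1 to 40.8% of the bar in EKO/hA-I libraries, 3.52 to 14.5% in EKO and 4.85 to 13.9% in WT. On chow the EKO/hA-I bars are lower than the EKO bars at 6 weeks and higher at 22 weeks.

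The other genes that met the rule in the higher direction were 2 predicted pseudogenes. Gm8580 (chromosome 10) was read at 3.87 to 7.16 in EKO/hA-I libraries, 0.217 to 0.765 in EKO libraries and 0.331 to 1.54 in WT libraries. Gm6548 (chromosome 17) was read at 39.8 to 70.8 in EKO/hA-I libraries, 12.5 to 24.3 in EKO libraries and 13.0 to 24.3 in WT libraries. The coding transcript closest in sequence to Gm8580 is that of the ribosomal protein gene Rpl29 (96.9% identity over 449 bases), and that closest to Gm6548 is that of the elongation factor gene Eef1a1 (96.7% over 1166 bases). Both of these genes, like Morf4l1, lie on chromosome 9. Rpl29 was read at 149.5 to 255.0 in EKO/hA-I libraries and 168.1 to 231.4 in EKO libraries, and Eef1a1 at 3907 to 5032 in EKO/hA-I libraries and 4346 to 6142 in EKO libraries, so these ranges overlapped.

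Over all tested genes, full separation of the genotypes was rare, and the separated genes that were lower in EKO/hA-I all lay on chromosome 9. This criterion, chosen after the values were seen, asks that no EKO/hA-I library overlap any EKO library. It draws on the same libraries and values that chose the 5 genes, so its counts are a description and no separate support. It was met by 8 genes lower in EKO/hA-I (0.0565% of 14157) and by 5 higher (0.0353%), among them all 5 described here. All 8 lower genes are on chromosome 9, which holds 807 (5.77%) of the 13981 tested genes with a known chromosome. Besides Glb1, Srprb, Nxpe4 and 2310030G06Rik they include Nnmt, the nicotinamide N-methyltransferase, Parp3, an ADP-ribosyltransferase, and Abhd14a. The 5 higher genes were Morf4l1b, Gm8580, Gm6548, Nnt of chromosome 13, a mitochondrial proton-pumping transhydrogenase, and Gldn of chromosome 9. Against all WT libraries 25 genes were lower (0.177%) and 45 higher (0.318%) in EKO/hA-I without overlap, with Nxpe4 and 2310030G06Rik among the lower and Morf4l1b among the higher. Between all EKO and all WT libraries 13 genes were higher (0.0918%) and 14 lower (0.0989%), none of the 5 described here.

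The counts of the pairs differed greatly between durations. In EKO/hA-I against EKO, limma called 11 genes on chow and 10 on WD at 6 weeks (0.0777% and 0.0706% of tested genes), and 4046 on chow and 2668 on WD at 22 weeks (28.6% and 18.8%). Lower calls were 0.0424% of tested genes in each 6-week pair, and higher calls 0.0353% on chow and 0.0283% on WD, and the rule used these contrasts. Of the lower calls with a known chromosome, 5 of 6 lay on chromosome 9 in each 6-week pair, against 124 of 2092 on chow and 100 of 1807 on WD at 22 weeks. The median log2 difference of all chromosome 9 genes was within 0.046 of 0 in all 4 pairs, so the chromosome as a whole was not shifted. In all, 349 genes were called the same way in 2 pairs. Just outside the rule on chromosome 9 stood Parp3 (-0.54, -0.52, -0.42 and -0.54 in the order chow 6 weeks, WD 6 weeks, chow 22 weeks, WD 22 weeks), Nnmt (-1.32, -1.97, -2.11 and -1.33) and Abhd14a (-0.48, -0.60, -0.63 and -0.49), which were called at 22 weeks and had differences of like size at 6 weeks. Eepd1 and the macrophage elastase gene Mmp12 were called lower in the same 2 pairs, but with differences of 0.60 and -0.02 for Eepd1 and -1.54 and -1.32 for Mmp12 at 6 weeks, against -0.89 and -0.71 for Eepd1 and -4.52 and -5.40 for Mmp12 at 22 weeks.

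**Figure D4:**
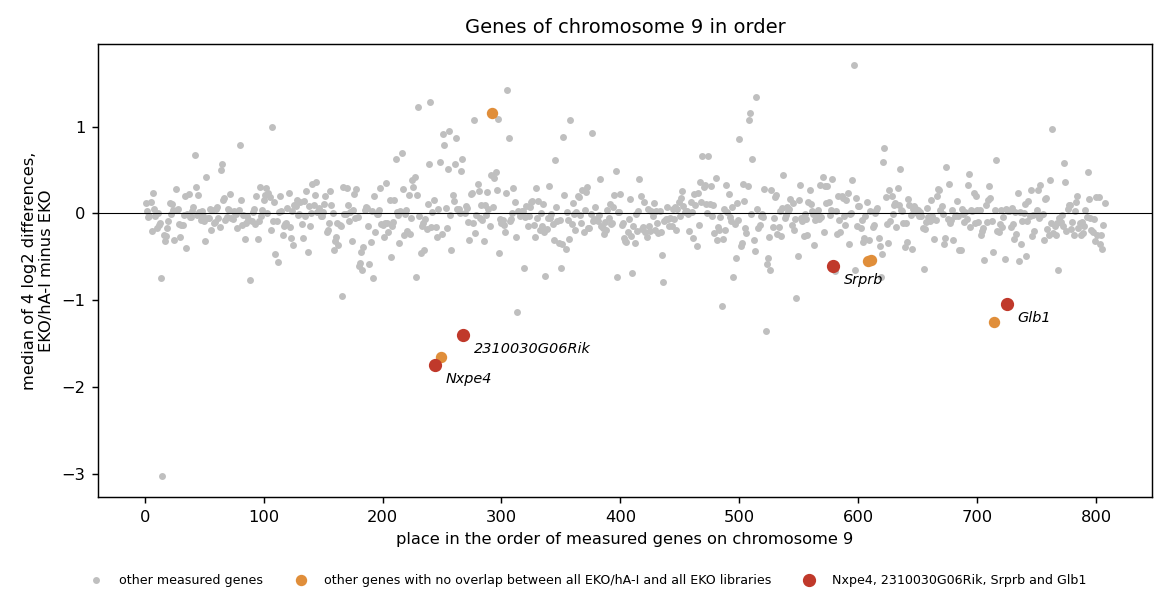
Median over the 4 pairs of the log2 difference, EKO/hA-I minus EKO, for the 807 measured genes of chromosome 9 in their order along it. The 4 named genes lie at places 244, 268, 579 and 725, and the orange points mark other genes whose EKO/hA-I and EKO libraries did not overlap.

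The chromosome 9 genes described here are not next to each other in the measured order. In the order of the 807 measured genes Nxpe4 is at place 244, 2310030G06Rik at 268, Srprb at 579 and Glb1 at 725. Of the other separated genes named above, Nnmt is at 249, Gldn at 292, Abhd14a at 608 and Parp3 at 611. Whether these genes lie on a shared inherited stretch was not tested. The mouse Apoa1 gene is at place 239, 5 measured genes from Nxpe4, and Nnmt is 5 places from Nxpe4 on its other side. Mouse Apoa1 was read at 0.435 to 1.47 in EKO/hA-I libraries, 0 to 1.91 in EKO libraries and 0.0934 to 7.64 in WT libraries, near the floor of the assay, and the human transgene is not a gene of this table. Of the 12 measured genes fixed as lying around Apoa1, none was called in either 6-week pair or on chow at 22 weeks, and 2 were lower and 1 higher on WD at 22 weeks. The shares of all tested genes called were 0.0777% (chow) and 0.0706% (WD) at 6 weeks, so none of 12 there is no result about these genes. At 22 weeks these shares were 28.6% on chow, and 12.9% lower and 5.96% higher on WD.

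The genes beside the 5 were read in the same pairs. Of 50 measured neighbours, 5 on each side of each gene, 0 were called in either 6-week pair by limma, in which 0.0777% (chow) and 0.0706% (WD) of all tested genes were called, so that 0 of 50 is no result about the neighbours. At 22 weeks 13 were lower and 9 higher on chow, and 7 were lower and 5 higher on WD. Of all tested genes, 14.9% were lower and 13.7% higher on chow, and 12.9% lower and 5.96% higher on WD at 22 weeks. Tmppe, which begins 29 bases from Glb1 on the same strand and overlaps it in the annotation, had differences of 0.01, 0.03, 0.13 and -0.41 in the order above, of which the last passed the threshold. Nxpe2, which overlaps Nxpe4 on the opposite strand, had -0.37, -0.20, 0.13 and -0.12. Besides Nnmt, the neighbours called in 2 pairs were Blnk, Pik3ap1 and Arhgap19 near Morf4l1b, each lower at 22 weeks, between -1.99 and -0.86, and none lower than -0.32 at 6 weeks. Blnk and Pik3ap1 encode adaptor proteins of immune cells.

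The partners of these genes were described through lists of related genes. Of all tested genes, 0.0777% (chow) and 0.0706% (WD) were called in the 6-week pairs, so 0 called there is no result about a list. At 22 weeks 14.9% of all tested genes were lower and 13.7% higher on chow, and 12.9% were lower and 5.96% higher on WD. Of 18 measured genes for the beta-galactosidase complex and the breakdown of glycolipids and keratan sulfate, 0 were called in either 6-week pair, 4 were lower and 1 higher on chow at 22 weeks, and 15 were lower on WD at 22 weeks. Their median log2 difference on WD at 22 weeks was -1.04, against -0.02 over all tested genes, in the pair where 9 of 10 macrophage markers were lower. Of 20 genes of the signal recognition particle, its receptor and the translocon, 0 were called at 6 weeks, 1 was lower and 4 higher on chow at 22 weeks, and 9 were lower on WD at 22 weeks (median -0.27, against -0.02 over all tested genes). Of 19 genes of MRG proteins and the NuA4 acetyltransferase complex, 0 were called at 6 weeks, 2 were lower and 6 higher on chow at 22 weeks, and 2 were lower on WD at 22 weeks (median -0.06). In the NXPE family Nxpe5 alone of the 3 measured was called, lower at 22 weeks on chow (-1.03 ± 0.33) and on WD (-2.32 ± 0.33). Of 2 NKAP genes listed 1 was measured, higher on chow at 22 weeks (0.49) and not called elsewhere. No list gene was called the same way in 3 or more pairs, where 8 of all 14157 tested genes were.

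Comparisons of diet and duration within a genotype did not enter the choice of the genes, and 5 of 60 tests passed there. The EKO and EKO/hA-I libraries in them did enter that choice, so the tests within these genotypes are not independent of it. The question is whether the level of a gene, low or high by genotype, also moves with the diet or with time. Of 30 tests of WD against chow (5 genes in 6 comparisons), 2 passed an adjusted p of 0.05 in limma, and of 30 tests of 22 against 6 weeks, 3 did. The share of all tested genes called in WD against chow was 0.00706% at 6 weeks and 38.2% at 22 weeks in EKO/hA-I, 0.0848% and 18.7% in EKO, and 1.43% and 1.36% in WT. In 22 against 6 weeks it was 0.0706% on WD and 0.00706% on chow in EKO/hA-I, 13.4% and 27.0% in EKO, and 6.68% and 0.12% in WT. In each of the 5 comparisons with a call it was 1 gene of 5, too few to set against these shares. Srprb and 2310030G06Rik passed in none of the 12 comparisons.

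Glb1 rose on WD in EKO aortas by 22 weeks. It averaged 74.9 ± 14.3 on WD and 31.7 ± 1.80 on chow at 22 weeks (SD, n = 3 each), a log2 difference of 1.20 ± 0.18 with a limma adjusted p of 3.15e-05. It was also higher in EKO on WD at 22 weeks than at 6 weeks, where it averaged 37.0 ± 6.61 (1.00 ± 0.18, limma adjusted p = 0.000307). All 3 libraries at 22 weeks on WD lay above all libraries of either comparison group. The summed macrophage markers were 6594 to 9461 in EKO on WD at 22 weeks, against 1269 to 2129 on chow at 22 weeks and 936 to 1512 on WD at 6 weeks, and 10 of 10 markers were higher in both comparisons. Fibroblast markers were higher for 2 of 5 against chow and 1 of 5 against 6 weeks, and smooth muscle markers lower for 3 of 7 against 6 weeks. With the mean of the 10 macrophage markers as a term, Glb1 no longer passed in limma (0.87 with adjusted p = 0.162 against chow, 0.62 with adjusted p = 0.747 against 6 weeks). The marker mean was 8.38 to 8.69 in the EKO libraries on WD at 22 weeks and at most 7.04 in any other library. The fit thus extrapolates, and it cannot tell the part of macrophages from that of the group. The part of the fibroblast and smooth muscle markers was not tested. In EKO/hA-I aortas 6 of the 10 markers were higher on WD than on chow at 22 weeks, and Glb1 averaged 15.02 ± 1.16 on WD and 17.9 ± 1.19 on chow (SD, n = 3 each; -0.24 ± 0.18, limma adjusted p = 0.328).

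**Figure D5:**
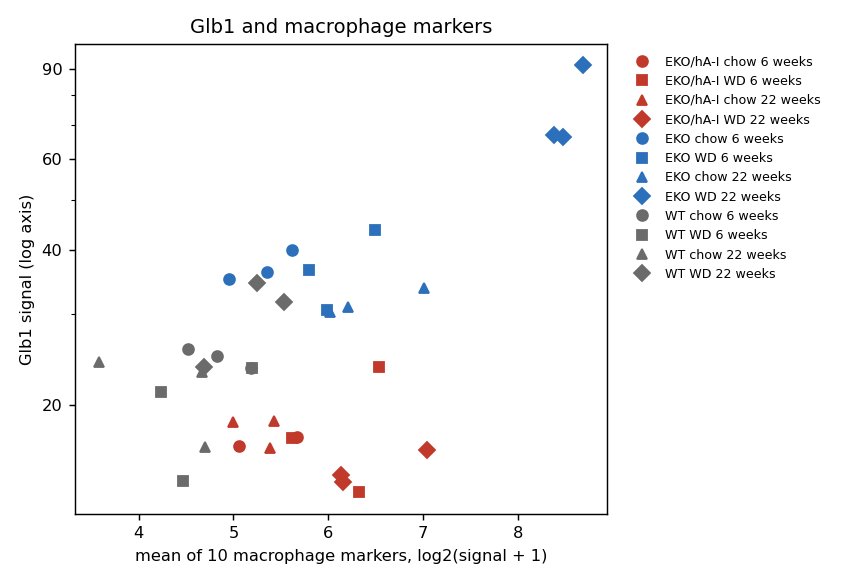
Glb1 signal (log axis) against the mean log2(signal + 1) of 10 macrophage markers in each library, by genotype (colour) and by diet and weeks on diet (symbol). The 3 EKO libraries on WD at 22 weeks are highest on both axes, and the EKO/hA-I libraries stay between 13.5 and 23.7 in Glb1 along the marker axis.

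In WT on WD, Glb1 was higher at 22 weeks (30.0 ± 5.62) than at 6 weeks (19.6 ± 4.84; SD, n = 3 each), by 0.60 ± 0.18 with a limma adjusted p of 0.0490. In this comparison 5 of 5 fibroblast markers were higher (sums of 1484 to 2276 at 22 weeks and 694 to 967 at 6 weeks), 3 of 6 endothelium markers were lower (1004 to 1301 at 22 weeks and 1432 to 1746 at 6 weeks) and 1 of 10 macrophage markers was higher, and the part of the fibroblast and endothelium markers was not tested. The call did not hold with the replicate number as a block, where the same difference had an adjusted p of 0.0529 in limma. Nor did it hold in limma with the brown fat term (0.44, adjusted p = 0.289), the macrophage term (0.52, adjusted p = 0.0999), the Y-linked transcript term (adjusted p = 0.0509), a pseudocount of 5 (0.51, adjusted p = 0.0508) or the compared groups alone (adjusted p = 0.157). It also ended without WT on WD at 6 weeks replicate 1 (0.39) or 2 (0.66) and without WT on WD at 22 weeks replicate 1 (0.49) or 2 (0.55). Leaving out a library outside this comparison also took the 3 calls of 22 against 6 weeks to 2 in many fits. Any 1 WT library on chow at 6 weeks did so, and which call ended there is not shown. Whether the WD effect on Glb1 at 22 weeks differs between EKO and WT was tested after the data were seen (0.73 ± 0.26, limma adjusted p = 0.0955, with 6.21% of genes called), and the difference did not pass.

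Nxpe4 fell on WD in EKO/hA-I aortas at 22 weeks. It averaged 1.22 ± 0.270 on WD and 3.46 ± 1.00 on chow (SD, n = 3 each), a log2 difference of -0.99 ± 0.28 with a limma adjusted p of 0.00861, and all 3 WD libraries lay below all 3 chow libraries. In the same comparison 7 of 7 smooth muscle markers were lower (sums of 3919 to 9775 on WD and 21984 to 33704 on chow), 5 of 6 brown fat markers were higher (5485 to 6803 on WD and 1458 to 1825 on chow) and 6 of 6 skeletal muscle markers were higher (806 to 2700 on WD and 9.66 to 37.1 on chow). Of the macrophage markers 6 of 10 and of the endothelium markers 3 of 6 were higher, and 3 of 5 fibroblast markers were lower. With the brown fat mean as a term the Nxpe4 difference was -1.50 with a limma adjusted p of 0.0802, and with the macrophage mean it was -1.12 (limma adjusted p = 0.035). The part of the other markers was not tested. The call was also lost with a pseudocount of 5 (-0.44, limma adjusted p = 0.093). In EKO and WT no comparison of diet passed for Nxpe4.

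Morf4l1b fell with time on chow in EKO aortas. It averaged 16.2 ± 5.70 at 22 weeks and 42.7 ± 18.7 at 6 weeks (SD, n = 3 each), a log2 difference of -1.32 ± 0.25 with a limma adjusted p of 0.0011, and the libraries did not overlap. Without the library of 64.0, replicate 2 at 6 weeks, the difference was -0.99 (limma adjusted p = 0.00814). Morf4l1 was 257.7, 298.3 and 298.3 at 22 weeks, against 392.1, 376.4 and 372.3 at 6 weeks, so both genes were lower. In that comparison 4 of 6 brown fat markers and 6 of 10 macrophage markers were higher and 2 of 7 smooth muscle markers lower. Their summed signals were 3769 to 6992 at 22 weeks and 1184 to 1665 at 6 weeks for brown fat, 1269 to 2129 and 479 to 753 for macrophages, and 11015 to 15349 and 25251 to 31635 for smooth muscle. Their part in the result was not tested for smooth muscle. With the brown fat or the macrophage mean as a term the difference was -1.43 or -1.29, and it still passed.

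Across libraries, genes whose levels were among the closest to each of the 5 are given by Pearson's r of log2(signal + 1) over the 35 libraries, which share genotype, diet and duration, so that r reflects group differences and is a description only. For Glb1 they were Akr1a1 (0.868), Snx1 (0.859) and Surf4 (0.841), and for Srprb Parp3 (0.843), Glb1 (0.827) and Surf4 (0.766). Nxpe4 went with 2310030G06Rik (0.795) and Clcn4 (0.787), and 2310030G06Rik with Naca (0.812) and Clcn4 (0.807). For Morf4l1b they were Gm8580 (0.941), Gm6548 (0.922) and Calml4 (0.797). After the group means were removed, r was 0.590 between Srprb and Glb1 and -0.616 between Nxpe4 and 2310030G06Rik. Both of the last were low in EKO/hA-I but, pooled over the 12 groups, went in opposite directions around the group means. In WT on chow at 22 weeks, replicate 2 stood apart in both genes. It read 21.3 for Nxpe4, against 6.90 and 7.76, and 5.97 for 2310030G06Rik, against 14.5 and 11.9. The r without this library was not computed.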

How the data were processed

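Aortic RNA of 35 libraries was analysed from 1 deposited table of normalised signal per gene and library, which the authors made by a scaling not given in the sources used here. Bowtie 0.12.2, RSEM and Bowtie2, and the builds mm9 and mm8, stand without a role in the submitters' processing notes. Column sums were 907492 to 1137740. Of values up to 1.5, between 71.9 and 82.1% lay within 0.02 of a whole number of inferred reads, so counts were not recovered and count tools were not used. Depth limits low genes, and inferred reads cover counting error only.

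The 14157 genes that reached a signal of 1 in 3 or more libraries (17 did not) were fitted in R 4.3.3 with the limma package 3.58.1, using its robust and trend options, on log2(signal + 1), all 12 groups in 1 fit, with two-sided tests, Benjamini-Hochberg adjustment within each comparison and a threshold of 0.05. The fit was tested on simulated data. The members and lists were chosen with earlier results of these data known. Genes named were the 5 members, list genes called in 3 pairs, the 3 genes most correlated with each member, neighbours called in 2 pairs, up to 5 chromosome 9 genes just outside the rule, and markers. Tmppe, Nxpe2, Nxpe5, Srpr, Lcor, Morf4l1, the 2 pseudogenes with Rpl29 and Eef1a1, Nnt and Gldn were named after their values were seen. A further gene that met the rule is not reported here. Of the 14174 symbols, 183 did not match the RefSeq GRCm38.p6 gene table, which gave chromosomes, order and promoters (all 5 members matched). Pseudogenes were compared with GENCODE M21 coding transcripts by blastn 2.17.0.

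Alternatives were the compared groups alone, a replicate block, pseudocounts of 0.1 and 5, no filter, median-ratio rescaling, terms for brown fat, macrophages and Y-linked transcripts, and each library left out. No label says that replicate numbers pair animals. Residuals of same-numbered libraries correlated above 0.1 in every pair in 22 against 6 weeks in EKO on WD (0.122 to 0.439) and WT on WD (0.132 to 0.339), with 3 pairs each, in EKO/hA-I on chow with 2 pairs (0.28 to 0.349), and in no comparison of genotypes or diets.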

Additional observations from a re-analysis of the deposited data

Results flagged for a closer look

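The change of Morf4l1b with time on chow differed between EKO and WT aortas. The log2 difference of 22 against 6 weeks was -1.32 ± 0.25 in EKO and 0.64 ± 0.25 in WT, and the difference between them was -1.95 ± 0.36 (SE; limma adjusted p = 0.00205 for the interaction, in which 15.1% of tested genes passed). The signal was 15.5, 22.2 and 10.9 at 22 weeks and 35.5, 64.0 and 28.7 at 6 weeks in EKO, and 38.5, 44.6 and 39.9 at 22 weeks and 30.0, 32.2 and 18.1 at 6 weeks in WT. All 3 EKO libraries at 22 weeks lay below, and all 3 WT libraries at 22 weeks above, every library of the same genotype at 6 weeks. With each of these 12 libraries left out in turn the difference lay between -2.20 and -1.63, with a limma adjusted p of 0.00149 to 0.00835. This test was added after the data were seen. Morf4l1 averaged 285 ± 23.4 at 22 weeks and 380 ± 10.4 at 6 weeks in EKO on chow (SD, n = 3 each). In WT on chow it averaged 334 ± 49.3 at 22 weeks and 320 ± 54.3 at 6 weeks (SD, n = 3 each). The signal of Morf4l1b is uncertain as a measure of that gene alone, as stated above. No brown fat or macrophage term was fitted to the interaction, so the part of these markers in it was not tested. The EKO libraries on chow at 22 weeks also belong to the pair with the largest EKO/hA-I minus EKO difference of the gene. None of the other 19 interactions computed for the 5 genes passed.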

How the results depend on the processing

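With the compared groups alone, 1 of the 5 genes met the rule, since each fit then estimates the spread from 5 or 6 libraries. All 5 did under every other alternative, except 4 without EKO on WD at 6 weeks replicate 3 or without any 1 of the EKO/hA-I libraries on WD at 6 weeks. The 2 calls of WD against chow became 1 with a pseudocount of 5 and 1 with the macrophage term, and the 3 calls of 22 against 6 weeks became 1 with the macrophage term, 2 with a pseudocount of 5, the Y-linked transcript term or the compared groups alone, and 4 with the brown fat term, where Glb1 in WT on WD was lost and 2310030G06Rik gained in EKO on WD (-0.58, limma adjusted p = 0.0281) and WT on chow (0.82, limma adjusted p = 0.0119). With 1 library left out they were 2 to 3, and those of WD against chow 2 to 3. With the replicate block the counts were 5, 2 and 2, the lost call being Glb1 in WT on WD (0.60, limma adjusted p = 0.0529), and the block changed no other call. Beyond these, 2310030G06Rik passed in WT on WD against chow at 22 weeks without WT on chow at 22 weeks replicate 2 (-1.08, limma adjusted p = 0.02) and with the brown fat term (-0.92). Morf4l1b passed in EKO/hA-I on WD against chow at 22 weeks with the compared groups alone (-0.56, limma adjusted p = 0.021). The calls of WD against chow were then 3. In EKO it passed in the same comparison without EKO on chow at 22 weeks replicate 2 (0.78, limma adjusted p = 0.0469). Over the diet and duration tests of single genes, refitting ended a call in 14 fits and gave one in 6, and none reversed. Fits without a library outside the compared groups are not in these 14 and 6. Low depth limits Nxpe4 and 2310030G06Rik in EKO/hA-I.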
